A study of Mus musculus with 6 samples.

Results

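Kinesins are motor proteins that walk along or dismantle microtubules, and their genes were followed through TGF-β treatment of NMuMG cells and its removal. The 40 kinesin genes were taken from the 18193 genes measured as those whose annotated symbol is Kif or Kifc with a number and, for some, a letter. A list of 10 of them was called mitotic by function (Kif2c, Kif4, Kif11, Kif15, Kif18a, Kif20a, Kif20b, Kif22, Kif23 and Kifc1), and the other 30 served as the rest. The symbol rule leaves out Cenpe, a kinesin with another name, and the rest is not all transport, since Kif14, Kif18b and Kif2a also act in division.

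NMuMG cells are epithelial cells of the mouse mammary gland that grow without limit in culture, here in medium with serum and insulin. The withdrawal group received 4 ng/ml TGF-β for 11 days and was then kept without it for 13 days, the TGF-β group received the same dose for 11 days, and the control group received vehicle. Each group had 2 Affymetrix arrays, so precision is limited by their number. Separate cultures are not named in the labels, and p-values therefore measure a spread between arrays that may be only technical. By the labels the withdrawal cells were also cultured 13 days longer after treatment began, so withdrawal and days in culture cannot be told apart; the control's days are not given. A description field gives the treated groups opposite state names, and the groups here follow the titles and treatment entries. Values are log2 expression per probe set on RMA scale, and of a gene's probe sets the one with the greatest average across the 6 arrays stands for it.

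The array medians lay between 5.77 and 5.79. The epithelial gene Cdh1 averaged 11.80 on withdrawal arrays, 8.31 on TGF-β arrays and 11.94 on control arrays, and the smooth muscle actin gene Acta2 averaged 8.14, 13.62 and 8.81 in the same order. Not all markers followed them. Of the 6 epithelial markers, 2 were called higher and 2 lower on withdrawal against TGF-β (21.8% and 22.1% of all genes). Against control, 0 were higher and 2 lower on withdrawal (21.7% and 23.6% of all genes). Of the 4 contractile markers, 1 was higher (by 1.03) and 1 lower on withdrawal against control. The mean over the 4 contractile markers lay at 6.59 to 6.63 on withdrawal arrays, 11.04 to 11.07 on TGF-β arrays and 6.56 to 6.58 on control arrays. The mean over the 6 epithelial markers lay at 10.16 to 10.17 on withdrawal arrays, 9.15 to 9.20 on TGF-β arrays and 10.50 to 10.54 on control arrays. Over the 5 measured leukocyte markers it lay at 5.43 to 5.48, 5.29 to 5.33 and 5.23 to 5.29 in the same order, and over the 5 endothelial markers at 4.72 to 4.74, 4.70 to 4.82 and 4.76 to 4.86. Cd68, a lysosomal gene used as a macrophage marker, was called higher on withdrawal than on control arrays (difference 0.88, adjusted p = 0.00333). The part of these markers in the results below was not tested.

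In dividing cells, kinesins push spindle poles apart, move chromosomes, shorten microtubule ends and build the midzone where the cell is cut. Their genes are mostly transcribed late in the cell cycle, by complexes that bind a short promoter element called the cell cycle genes homology region (CHR), often with the factor NF-Y bound to a CCAAT box nearby. Other kinesins carry vesicles, mitochondria and cilium parts along microtubules. TGF-β is known to slow the growth of epithelial cells and, in NMuMG cells, to drive an epithelial to mesenchymal transition.

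The promoters of the mitotic kinesins are shown because most members moved together, though not Kif15. Promoters of 300 bases (250 before to 50 after the gene start), taken from RefSeq on GRCm38.p6, were found for 32 of the 40 kinesins, and not for Kif5a, Kif5b, Kif13b, Kif20a, Kif21b, Kif28, Kifc2 and Kifc3. The CHR letters searched were TTTGAA and the CCAAT letters CCAAT, each on both strands (TTCAAA and ATTGG), and a match of one can share at most 1 base with a match of the other. The CHR letters stood in 8 of 9 mitotic kinesin promoters, in 5 of 27 promoters of 23 other kinesin genes and in 17.9% of 32851 promoters of all genes. The CCAAT letters stood in 5 of 9, 11 of 27 and 37.4% of these promoters in the same order. A match is a description of the letters and not a binding site. Below are 120 bases before and 30 bases from the start of the 6 mitotic kinesins called lower in every comparison, with capitals at both motifs.
Kif11 (chr19:37376262-37376411, plus strand): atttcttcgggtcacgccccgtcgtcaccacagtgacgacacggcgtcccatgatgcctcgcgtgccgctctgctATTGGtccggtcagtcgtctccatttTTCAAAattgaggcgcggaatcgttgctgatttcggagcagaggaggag
Kifc1 (chr17:33890604-33890753, minus strand): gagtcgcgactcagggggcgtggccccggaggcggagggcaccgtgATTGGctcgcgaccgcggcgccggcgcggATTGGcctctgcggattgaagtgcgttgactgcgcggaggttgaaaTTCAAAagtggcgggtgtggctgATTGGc
Kif22 (chr7:127042391-127042540, minus strand): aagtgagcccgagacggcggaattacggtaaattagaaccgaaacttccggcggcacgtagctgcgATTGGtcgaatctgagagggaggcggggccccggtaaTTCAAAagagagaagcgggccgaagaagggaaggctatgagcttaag
Kif4 (chrX:100625945-100626094, plus strand): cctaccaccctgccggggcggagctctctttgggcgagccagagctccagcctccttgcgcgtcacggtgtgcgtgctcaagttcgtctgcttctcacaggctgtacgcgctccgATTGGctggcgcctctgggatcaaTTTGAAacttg
Kif20b (chr19:34922238-34922387, plus strand): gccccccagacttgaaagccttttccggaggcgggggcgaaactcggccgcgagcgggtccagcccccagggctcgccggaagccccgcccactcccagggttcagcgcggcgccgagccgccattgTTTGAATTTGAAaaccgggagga
Kif23 (chr9:61946770-61946919, minus strand): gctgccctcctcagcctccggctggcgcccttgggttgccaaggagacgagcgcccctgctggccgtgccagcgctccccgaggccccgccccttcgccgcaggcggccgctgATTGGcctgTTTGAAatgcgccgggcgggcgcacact
All 6 stretches hold the CHR letters within 20 bases of the start, counted to the first base of the match. In Kif20b they stand in tandem, 8 and 14 bases into the transcript. Of the mitotic kinesins with a promoter, Kif18a had neither motif in its 300 bases, though it was called lower in both withdrawal comparisons. Kif15, which passed in no comparison, held the CHR letters 19 and 234 bases before the start. Kif14 and Kif18b, counted here among the other kinesins, held them as well. Both motifs also occur in Kif26b, the member that rose most under TGF-β, which is shown for contrast.
Kif26b (chr1:178529005-178529154, plus strand): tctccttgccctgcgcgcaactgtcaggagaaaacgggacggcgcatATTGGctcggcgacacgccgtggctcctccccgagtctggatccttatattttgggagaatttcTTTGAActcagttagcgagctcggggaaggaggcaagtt

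Most mitotic kinesins had their lowest values after TGF-β had been taken away, and Kif15 did not pass in any comparison. On withdrawal against control, 9 of the 10 were lower and 0 higher in limma (9 and 0 also at an unadjusted p under 0.05), where 23.6% of all genes were called lower and 21.7% higher. The arrays did not overlap for 9 of the 10, as for 70.5% of all genes. All 9 were lower by at least 1 on the log2 scale, a size of decrease called in 3.48% of all genes. The median difference of the 10 was -1.44, against -0.042 over all genes. The values come from bulk RNA, in which fewer cells of a type and less RNA per cell cannot be told apart.

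On withdrawal against TGF-β, 9 of the 10 were lower and 0 higher (9 and 0 unadjusted), with a median of -1.11, against -0.033 over all genes, of which 22.1% were called lower and 21.8% higher. The arrays did not overlap for 9, as for 69.0% of all genes. Of the 9, 7 were lower by at least 1, as were 3.12% of all genes. Under TGF-β against control the median difference was smaller: 6 of the 10 were lower and 0 higher (7 and 0 unadjusted), with a median of -0.24, against -0.011 over all genes, of which 17.5% were called lower and 15.0% higher. The arrays did not overlap for 8, as for 64.9% of all genes. None of these 6 fell by 1 or more, as 2.57% of all genes did. The comparisons share arrays and are not independent of each other.

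Scaling the arrays to spiked RNAs moved the median of all genes on withdrawal against control to -0.18 with poly-A spikes and -0.42 with hybridization spikes, and under TGF-β to -0.30 and -0.17. On withdrawal against TGF-β these spikes moved it in opposite directions, to 0.12 and -0.25. The offsets were uneven within some groups. Poly-A offsets were 0.0071 and -0.29 on the control arrays. Hybridization offsets were 0.29 and 0.11 on the withdrawal arrays, but -0.019 and -0.021 on the TGF-β arrays. Whether these shifts reflect the cells was not tested. The mitotic median moved with that of all genes, to -1.58 and -1.81 on withdrawal against control and -0.53 and -0.40 under TGF-β. This scaling subtracts the same value from every gene of an array, so the gap between these medians could not change. Under either scaling 0 members were called higher in these comparisons. Few genes were called higher with these scalings under TGF-β, 818 and 1319 of 18193. On withdrawal against control they numbered 1967 and 1655. The 6 calls under TGF-β fell to 3 without the first or the second control array, or without the first TGF-β array.

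**Figure D1:**
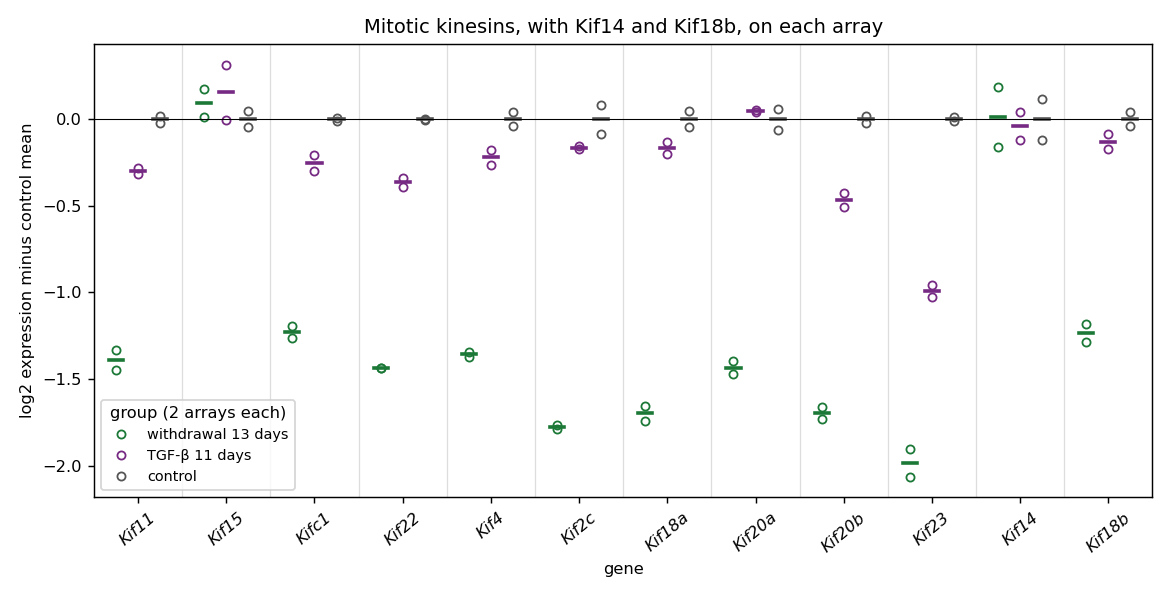
Log2 expression of the 10 mitotic kinesins, Kif14 and Kif18b on each array, minus the gene's control mean (vertical axis), for withdrawal, TGF-β and control, left to right within a gene. Circles are arrays and bars group means; the withdrawal arrays of 10 of the 12 genes lie more than 1 below control, and those of Kif15 and Kif14 lie near 0.

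Among the kinesins that shape the spindle, Kif11 slides antiparallel microtubules and pushes the poles apart. Its values were 8.48 and 8.60 on the withdrawal arrays, 9.61 and 9.65 on the TGF-β arrays and 9.95 and 9.91 on the control arrays. The withdrawal arrays lay below both other groups without overlap, and the TGF-β arrays below control. The difference was -1.39 ± 0.060 (SE) on withdrawal against control (adjusted p = 1.68e-05), or 2.62-fold lower, and -0.30 ± 0.060 under TGF-β (adjusted p = 0.0122). The TGF-β call was lost on leaving out the first control, second control or first TGF-β array (adjusted p = 0.0733, 0.0509 and 0.0638). Kif15, which can keep spindles bipolar beside Kif11, passed in none of the 3 comparisons. Its values were 5.96 and 5.80 on the withdrawal arrays, 5.78 and 6.10 on the TGF-β arrays and 5.83 and 5.74 on the control arrays, and the groups overlapped. Its differences were 0.09 on withdrawal against control and 0.15 under TGF-β (adjusted p = 0.575 and 0.397). Kif15 had 1 probe set, with no detection call used here, so a signal near background is not told apart from an even level.

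Kifc1 walks to microtubule minus ends and focuses spindle poles. It had 8.35 and 8.42 on the withdrawal arrays, 9.32 and 9.41 on the TGF-β arrays and 9.62 and 9.61 on the control arrays, and no groups overlapped. It was lower by 1.23 on withdrawal against control and by 0.25 under TGF-β (differences -1.23 ± 0.058 and -0.25 ± 0.058, adjusted p = 2.18e-05 and 0.0191). The gene is uncertain because Kifc5b is a close relative. The TGF-β call was lost without either control array or the first TGF-β array (adjusted p = 0.0939, 0.0808 and 0.0965).

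The chromokinesins Kif22 and Kif4 bind chromosome arms, and Kif4 also works with Prc1 at the spindle midzone. Kif22 had 9.96 and 9.96 on the withdrawal arrays, 11.01 and 11.06 on the TGF-β arrays and 11.40 and 11.40 on the control arrays. Its 3 probe sets were all called lower in every comparison. The difference was -1.44 ± 0.050 on withdrawal against control and -0.36 ± 0.050 under TGF-β (adjusted p = 8.78e-06 and 0.00249). Kif4 had 7.91 and 7.88 on the withdrawal arrays, 9.08 and 8.995 on the TGF-β arrays and 9.30 and 9.22 on the control arrays, again without overlap between groups. Kif4 differed by -1.36 ± 0.059 on withdrawal against control (adjusted p = 1.68e-05) and by -0.22 ± 0.059 under TGF-β (adjusted p = 0.0342). Its TGF-β call was lost when any of the 6 arrays was left out (adjusted p = 0.0541 to 0.167).

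Kif2c and Kif18a act at microtubule plus ends, where Kif2c removes tubulin to correct faulty attachments and Kif18a damps the movement of chromosomes. Neither passed under TGF-β against control, and both were lower after its removal. Kif2c had 7.24 and 7.27 on the withdrawal arrays, 8.86 and 8.88 on the TGF-β arrays and 9.12 and 8.95 on the control arrays. Its difference was -0.17 ± 0.068 under TGF-β (adjusted p = 0.127) and -1.61 ± 0.068 on withdrawal against TGF-β (adjusted p = 1.8e-05). Of the 4 probe sets of Kif2c, 2 were called on withdrawal against control, at -1.78 and -0.87, and the others were at -0.24 and 0.08, so the size depends on the probe set. Kif18a had 6.11 and 6.19 on the withdrawal arrays, 7.72 and 7.65 on the TGF-β arrays and 7.89 and 7.80 on the control arrays, and here too the withdrawal arrays lay below all others. It differed by -0.17 ± 0.063 under TGF-β (adjusted p = 0.102) and by -1.53 ± 0.063 on withdrawal against TGF-β (adjusted p = 1.62e-05). A second probe set of Kif18a was not called (-0.23 on withdrawal against TGF-β and -0.07 against control), and the mean of both gave -0.88 against TGF-β. That second probe set averaged 3.18, below the lower quartile of all probe set values (4.38). Kif2c and Kif18a were called lower under TGF-β with either spike scaling (adjusted p = 0.0307 to 0.049). These scalings shift all genes alike and moved the median of all genes there to -0.30 and -0.17. Kif18a was also called lower under TGF-β without the dimmest 40% of genes (-0.17, adjusted p = 0.0415).

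The kinesins of the midzone and of cytokinesis differed among themselves under TGF-β. Kif23, which forms the centralspindlin complex with Racgap1, had 8.67 and 8.83 on the withdrawal arrays, 9.78 and 9.71 on the TGF-β arrays and 10.72 and 10.75 on the control arrays. The 3 groups were fully separated and the TGF-β arrays lay between the others. The difference of Kif23 was -0.99 ± 0.070 under TGF-β (adjusted p = 0.000172), -0.99 ± 0.070 on withdrawal against TGF-β (adjusted p = 0.000105) and -1.98 ± 0.070 on withdrawal against control (adjusted p = 9.37e-06), the last a 3.95-fold lower level. A second probe set of Kif23 gave -2.51 on withdrawal against control and another -0.29, which did not pass under TGF-β (-0.02, adjusted p = 0.905). The one at -0.29 averaged 3.74, below the lower quartile of all probe set values (4.38). By the chosen probe sets Kif23 had the lowest difference of the 40 kinesins on withdrawal against control.

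Kif20a, which carries Aurora B to the midzone, did not pass under TGF-β. It had 8.31 and 8.38 on the withdrawal arrays, 9.82 and 9.83 on the TGF-β arrays and 9.84 and 9.72 on the control arrays, and the TGF-β and control arrays overlapped. Its difference was 0.05 ± 0.063 under TGF-β (adjusted p = 0.641), and it fell by 1.48 on withdrawal against TGF-β (adjusted p = 1.8e-05). Kif20b, a relative that acts late in cytokinesis, had 7.92 and 7.85 on the withdrawal arrays, 9.07 and 9.15 on the TGF-β arrays and 9.60 and 9.56 on the control arrays. All groups were separated, and the differences were -0.47 ± 0.057 under TGF-β (adjusted p = 0.00156) and -1.70 ± 0.057 on withdrawal against control (adjusted p = 8.27e-06). Its other 3 probe sets were also called lower in the comparison with control, at -0.58 to -2.41 on withdrawal. Those at -0.58 and -0.75 averaged 3.18 and 3.17, below the lower quartile of all probe set values (4.38), and add little.

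Kif18b and Kif14 fall among the rest by the list used, though both serve in mitosis. Kif18b, which helps Kif2c shorten astral microtubules, had 6.997 and 7.10 on the withdrawal arrays, 8.11 and 8.20 on the TGF-β arrays and 8.24 and 8.32 on the control arrays. As for Kif18a, the difference did not pass under TGF-β, with -0.13 under TGF-β (adjusted p = 0.207), and it was called lower, by 1.10, on withdrawal against TGF-β (adjusted p = 5.64e-05). Kif14, a cytokinesis motor, had 3.49 and 3.14 on the withdrawal arrays, 3.35 and 3.18 on the TGF-β arrays and 3.42 and 3.18 on the control arrays, with all groups overlapping and 0 calls. Its single probe set lay below the lower quartile of all probe set values (4.38), so these values say little about the gene. Counted with these genes, 10 of 12 were lower on withdrawal against control, where 23.6% of all genes were called lower, with a median of -1.41.

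The rest of the family moved both ways. On withdrawal against control, 11 of the 30 were higher and 7 lower, where 45.3% of all genes were called, and their median was 0.022. On withdrawal against TGF-β, 8 were higher and 4 lower (43.9% of all genes called, median 0.031). Under TGF-β, 6 were higher and 7 lower (32.4% of all genes called, median -0.049). The share called was 60% on withdrawal against control, 40% on withdrawal against TGF-β and 43.3% under TGF-β. The split depends on scaling, though the spike offsets were uneven within some groups. On withdrawal against control it was 3 higher and 7 lower with poly-A spikes and 3 and 18 with hybridization spikes. Under TGF-β it was 2 and 10, and 2 and 9, and on withdrawal against TGF-β it was 7 and 3, and 5 and 12. The 13 calls under TGF-β numbered 7 without the first control array and 8 without either TGF-β array.

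**Figure D2:**
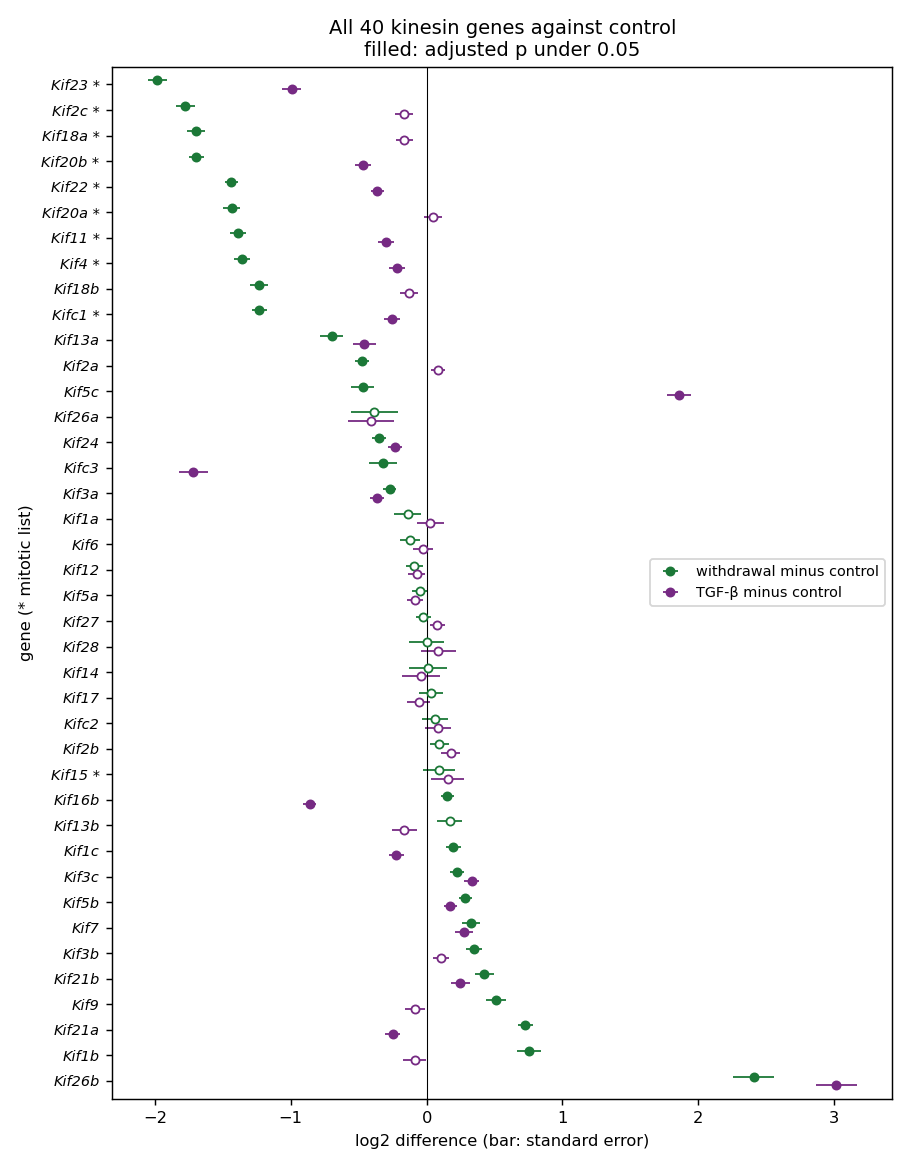
Log2 difference from control of all 40 kinesin genes for withdrawal (green) and TGF-β (purple), ordered by the withdrawal difference, with bars for the standard error and filled points for an adjusted p under 0.05. Of the 10 lowest genes on withdrawal, 9 are on the mitotic list (asterisk) and the other is Kif18b, while Kif26b is highest in both.

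Kif26b had the largest change of the family. It is an atypical kinesin that binds microtubules and is known from kidney development and non-canonical Wnt signalling. Its values were 7.74 and 7.75 on the withdrawal arrays, 8.44 and 8.27 on the TGF-β arrays and 5.11 and 5.57 on the control arrays, so both treated groups lay far above control. It rose by 3.02 ± 0.15 (SE) under TGF-β (adjusted p = 4.74e-05), an 8.09-fold higher level, where 5.30% of all genes were called with a change of at least 1. It was still higher by 2.41 ± 0.15 after withdrawal than in control (adjusted p = 6.28e-05), or 5.3-fold, where 8.54% of all genes were called with a change of at least 1. The decrease from TGF-β to withdrawal, -0.61 ± 0.15 (adjusted p = 0.0204), lost its call on leaving out either withdrawal array or the first TGF-β array (adjusted p = 0.0827, 0.0836 and 0.092). Its relative Kif26a was at -0.41 under TGF-β and did not pass (adjusted p = 0.133).

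Kif5c, a kinesin heavy chain best known from neurons, rose under TGF-β and ended below control. It had 5.48 and 5.47 on the withdrawal arrays, 7.92 and 7.68 on the TGF-β arrays and 5.97 and 5.93 on the control arrays, with the TGF-β arrays above all others and the withdrawal arrays below control. It differed by 1.86 ± 0.087 under TGF-β (adjusted p = 3.57e-05), by -2.33 ± 0.087 on withdrawal against TGF-β (adjusted p = 1.28e-05) and by -0.47 ± 0.087 on withdrawal against control (adjusted p = 0.00574). On withdrawal against TGF-β 7.93% of all genes were called with a change of at least 1. Of its other 3 probe sets, one gave 1.22, -2.15 and -0.93 in the same comparisons, and the remaining ones gave 0.37 and 0.05 under TGF-β and 0.23 and 0.01 on withdrawal against control, so the size depends on the probe set. These remaining probe sets averaged 4.37 and 2.96, below the lower quartile of all probe set values (4.38). Kif5b, the heavy chain used in most tissues, was at 0.17 under TGF-β and 0.28 on withdrawal (adjusted p = 0.0402 and 0.00423), with other probe sets at -0.14 to 0.06 on withdrawal, and the signs turned with poly-A spikes under TGF-β and with hybridization spikes on withdrawal. The TGF-β call of Kif5b did not hold when any 1 array was left out (adjusted p = 0.0563 to 0.17). The chosen probe set of Kif5a was at -0.08 under TGF-β and -0.05 on withdrawal against control and did not pass (adjusted p = 0.369 and 0.572). Another probe set of Kif5a was called higher under TGF-β (0.56, adjusted p = 0.00961) and was at -0.30 on withdrawal against TGF-β (adjusted p = 0.0693), and the mean of its probe sets passed under TGF-β as well (0.20, adjusted p = 0.0475), so its direction depends on the probe set. The probe set at 0.56 averaged 4.22, below the lower quartile of all probe set values (4.38).

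Kifc3 and Kif16b fell under TGF-β and were higher again on withdrawal against TGF-β. Kifc3 is a minus-end motor of epithelial cells, linked to apical transport and to adherens junctions. It had 8.55 and 8.59 on the withdrawal arrays, 7.02 and 7.33 on the TGF-β arrays and 8.90 and 8.88 on the control arrays, and the TGF-β arrays lay below all others. The differences were -1.72 ± 0.10 under TGF-β (adjusted p = 9.39e-05), a 3.29-fold lower level, and 1.39 ± 0.10 on withdrawal against TGF-β (adjusted p = 0.00013). The remaining -0.32 on withdrawal against control (adjusted p = 0.0483) lost its call without any 1 of the withdrawal or control arrays (adjusted p = 0.126 to 0.157).

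Kif16b moves early endosomes towards the cell edge. It had 7.82 and 7.79 on the withdrawal arrays, 6.80 and 6.80 on the TGF-β arrays and 7.64 and 7.67 on the control arrays. It differed by -0.86 ± 0.049 under TGF-β (adjusted p = 7.85e-05) and by 1.01 ± 0.049 on withdrawal against TGF-β (adjusted p = 2.76e-05). Against control, the withdrawal difference of 0.15 (adjusted p = 0.0496) did not pass without any 1 of the 6 arrays (adjusted p = 0.082 to 0.195) or with the replicate block (adjusted p = 0.0797), and its sign turned with hybridization spikes (-0.23). Of its other probe sets, one was called lower in that comparison (-0.38, adjusted p = 0.0224) and one was at 0.28 (adjusted p = 0.108), so no direction against control can be given.

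**Figure D3:**
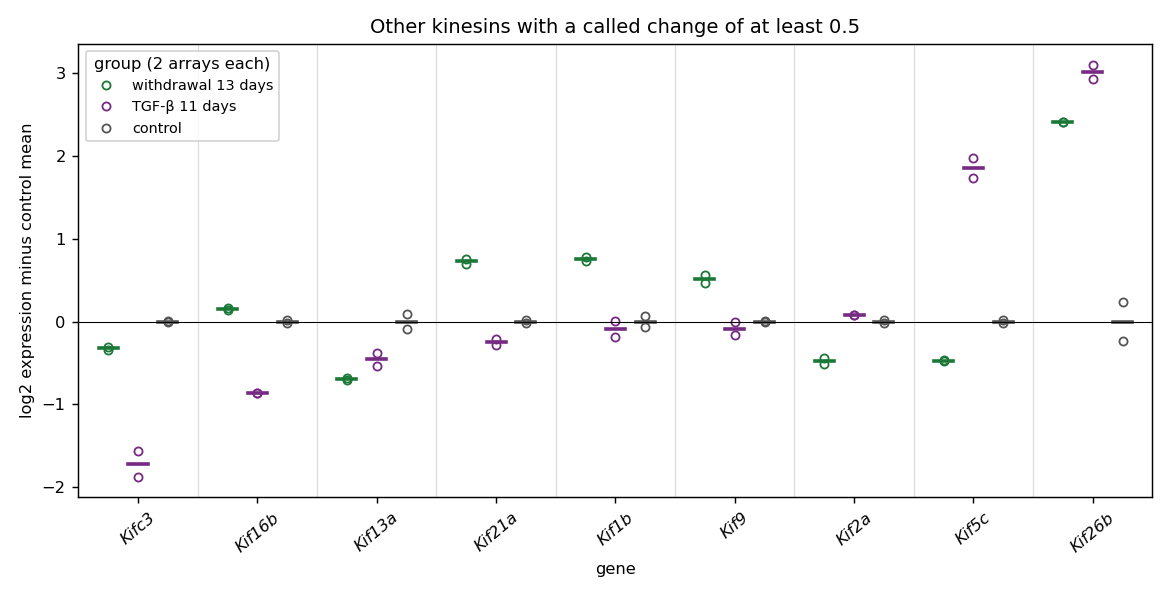
Log2 expression of the 9 other kinesins with a called change of at least 0.5, on each array, minus the gene's control mean (vertical axis), for withdrawal, TGF-β and control, left to right within a gene. Circles are arrays and bars group means; Kifc3 and Kif16b are lowest on TGF-β arrays, Kif5c is highest there, and Kif26b is high in both treated groups.

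Kif21a and Kif9 were higher after withdrawal than in either other group, as was the chosen probe set of Kif1b. Kif21a, which restrains microtubule growth at the cell cortex, had 8.52 and 8.45 on the withdrawal arrays, 7.55 and 7.47 on the TGF-β arrays and 7.75 and 7.77 on the control arrays, so that withdrawal was highest and TGF-β lowest. It differed by 0.73 ± 0.056 on withdrawal against control (adjusted p = 0.000129) and by -0.25 ± 0.056 under TGF-β (adjusted p = 0.0173). The TGF-β call of Kif21a was lost without either control array or the second TGF-β array (adjusted p = 0.0688, 0.0923 and 0.0918). Kif9, a motor known from motile cilia and sperm flagella, had 5.90 and 6.0 on the withdrawal arrays, 5.43 and 5.27 on the TGF-β arrays and 5.44 and 5.44 on the control arrays and was higher by 0.51 on withdrawal against control (adjusted p = 0.0017). That call was lost with either spike scaling (adjusted p = 0.0883 and 0.345).

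Kif1b, whose products carry mitochondria and synaptic vesicle parts in neurons, had 9.43 and 9.37 on the withdrawal arrays, 8.65 and 8.47 on the TGF-β arrays and 8.58 and 8.72 on the control arrays. By this probe set it was higher by 0.75 on withdrawal against control (adjusted p = 0.000667) and by 0.84 on withdrawal against TGF-β (adjusted p = 0.00045). Its 7 probe sets were split. On withdrawal against TGF-β 4 were called higher and 3 lower, over a range of -0.82 to 0.89, with p-values adjusted over all probe sets. Under TGF-β the 3 that fell on withdrawal were higher, at 0.53 to 0.90, and the chosen one was at -0.09 (adjusted p = 0.51). The direction of Kif1b thus depends on the probe set, and in the fit of all probe sets it was the only 1 of 26 kinesins with several that had calls in opposite directions within a comparison. In that fit the chosen probe sets of Kif16b and Kifc3 did not pass on withdrawal against control (adjusted p = 0.0758 and 0.0532). Those of Kif21b and Kif5b did not pass under TGF-β (adjusted p = 0.0534 and 0.0657).

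**Figure D4:**
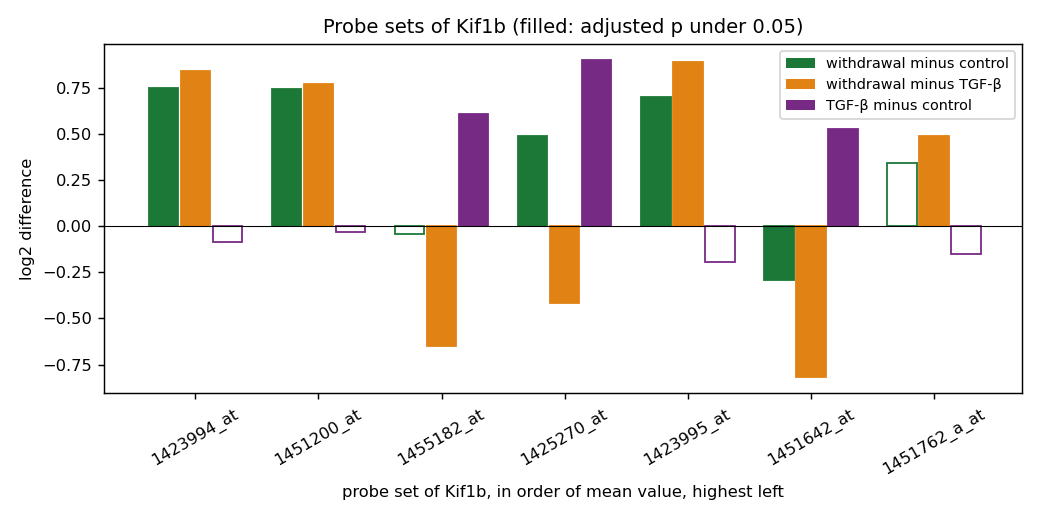
Log2 difference (vertical axis) for each of the 7 probe sets of Kif1b (horizontal axis, highest mean at left) in withdrawal against control, withdrawal against TGF-β and TGF-β against control, filled where the adjusted p is under 0.05. On withdrawal against TGF-β 4 probe sets are higher and 3 are lower.

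Kif13a and Kif2a were lower after withdrawal than in control, together with a few smaller decreases. Kif13a, which moves vesicles of the endosome system to the plasma membrane, had 6.91 and 6.88 on the withdrawal arrays, 7.21 and 7.06 on the TGF-β arrays and 7.50 and 7.69 on the control arrays. It differed by -0.46 ± 0.085 under TGF-β (adjusted p = 0.00852) and by -0.70 ± 0.085 on withdrawal against control (adjusted p = 0.000917). On withdrawal against TGF-β it did not pass (-0.24, adjusted p = 0.0654). Of the 5 probe sets of Kif13a, 3 were called lower on withdrawal against control and 2 under TGF-β, with 0 higher. Kif2a, a depolymerase of spindle poles and neurites, had 8.68 and 8.75 on the withdrawal arrays, 9.28 and 9.28 on the TGF-β arrays and 9.18 and 9.21 on the control arrays, and the withdrawal arrays lay below all others. It differed by -0.48 ± 0.052 on withdrawal against control (adjusted p = 0.000584) and by 0.08 under TGF-β (adjusted p = 0.294). Of its 5 probe sets, 2 were called lower on withdrawal against control and 0 higher. Its relative Kif24, which limits cilium growth, was at -0.35 (adjusted p = 0.00213).

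The cilium motors gave small values, of mixed sign against control by the chosen probe sets. Kif3a and Kif3b pair to carry cargo into the cilium. On withdrawal against control Kif3a was at -0.27 and Kif3b at 0.35 (adjusted p = 0.00512 and 0.00466), and the sign of Kif3b turned with hybridization spikes. The other probe sets of Kif3a were at -0.19, 0.17 and 0.00061 on withdrawal against control, and its call was lost with their mean (-0.072, adjusted p = 0.331) and with poly-A spikes (adjusted p = 0.0538). Under TGF-β Kif3a was at -0.36 (adjusted p = 0.00235) and Kif3b at 0.11 (adjusted p = 0.265), with the other probe sets of Kif3b at -0.23 to -0.01 and not called. On withdrawal against TGF-β the chosen probe set of Kif3a did not pass (0.09, adjusted p = 0.194). There 3 of the 4 probe sets of Kif3a and 2 of the 4 of Kif3b were called higher. They ranged from 0.09 to 0.43 and from 0.14 to 0.45, and the mean for Kif3a passed (0.26, adjusted p = 0.00895). Kif7, which acts at the cilium tip in Hedgehog signalling, was at 0.33 on withdrawal and 0.27 under TGF-β (adjusted p = 0.00773 and 0.0222), and the sign turned with hybridization spikes on withdrawal and with poly-A spikes under TGF-β. Kif17, another cilium and dendrite motor, did not pass (0.03 on withdrawal against control, adjusted p = 0.798).

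Of the remaining members, Kif1c, Kif3c and Kif21b were higher on withdrawal than in control, by 0.20, 0.22 and 0.43 (adjusted p = 0.0307, 0.018 and 0.00341). The signs of Kif1c and Kif3c turned under hybridization spikes, and poly-A spikes cost all of these calls (adjusted p = 0.815, 0.733 and 0.208). All 4 probe sets of Kif1c were called higher there, at 0.20 to 0.75. The second probe sets of Kif3c and Kif21b were not called (0.09 and -0.07, adjusted p = 0.362 and 0.477). Under TGF-β Kif3c and Kif21b were higher, by 0.33 and 0.25 (adjusted p = 0.00524 and 0.0405), and Kif1c and Kif24 were at -0.22 and -0.23 (adjusted p = 0.0272 and 0.0173). On withdrawal against TGF-β Kif1c was higher by 0.42 and Kif3b by 0.24 (adjusted p = 0.00144 and 0.0207). The TGF-β call of Kif21b held under 4 of the 15 other settings, and its sign turned with poly-A spikes. The TGF-β calls of Kif1c and Kif24 were lost on leaving out any 1 of the TGF-β or control arrays (adjusted p = 0.0514 to 0.142 and 0.0508 to 0.101). The call of Kif3b on withdrawal against TGF-β was lost under 5 settings, among them without the second withdrawal array or either TGF-β array (adjusted p = 0.0618 to 0.0902). Of the 3 comparisons, Kif13b passed on withdrawal against TGF-β, at 0.34 (adjusted p = 0.0287), and lost that call without the first withdrawal array or either TGF-β array (adjusted p = 0.0603 to 0.129). Its other probe sets were at -0.09 to 0.15. Kif1a, Kif2b, Kif6, Kif12, Kif27, Kif28 and Kifc2 passed in 0 of the 3 comparisons. Their differences lay between -0.16 (Kif1a, withdrawal against TGF-β) and 0.18 (Kif2b, TGF-β against control).

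Most genes that work with mitotic kinesins were called lower in the same samples. Of 18 measured spindle and cytokinesis partners, 16 were lower and 1 higher on withdrawal against control, with a median of -1.72, and 14 were lower and 0 higher under TGF-β (15 and 0 unadjusted), with a median of -0.32. Of all genes, 23.6% were called lower and 21.7% higher on withdrawal against control, and 17.5% and 15.0% under TGF-β. The kinases Aurkb and Aurka were at -2.42 and -2.33 on withdrawal, Cenpe, the kinetochore kinesin outside the symbol rule, at -2.26, and the passenger complex gene Birc5 at -2.07. These 4 had adjusted p-values of 6.88e-06, 3.9e-06, 5.56e-06 and 4.33e-06. Ect2, which starts the cleavage furrow, had the largest TGF-β decrease, -1.08, beside -0.99 for Kif23. Prc1, the partner of Kif4, was at -1.72 on withdrawal and -0.15 under TGF-β (adjusted p = 5.83e-06 and 0.0684). The member that went up on withdrawal was Numa1, a spindle pole protein that is also part of the interphase nucleus, at 0.64 (adjusted p = 0.000134).

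Of 15 measured proliferation and G2/M regulators, 14 were lower and 0 higher on withdrawal against control (14 and 0 unadjusted), with a median of -1.39, and 12 were lower and 0 higher under TGF-β (14 and 1 unadjusted), with a median of -0.51. The share of all genes called lower was 23.6% and 17.5% in these comparisons. Mybl2 and Lin9, parts of the complex that acts at CHR elements, were at -2.23 and -1.95 on withdrawal and at -0.79 and -0.89 under TGF-β. The cyclin gene Ccna2 and the kinase gene Cdk1 were at -2.22 and -2.10 on withdrawal, with adjusted p = 4.33e-06 and 4.84e-06. Mki67, a marker of cycling cells, was at -1.55 and -0.78 (adjusted p = 6.45e-06 and 9.51e-05). Of the NF-Y subunit genes, Nfyb was at -1.25 and Nfya at -0.61 on withdrawal, and Nfyc, at 0.09, did not pass (adjusted p = 0.214). Whether the kinesin values follow the share of dividing cells was not tested.

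The light chains and cargo adaptors of transport kinesins had the opposite balance on withdrawal. Of 13 measured, 9 were higher and 0 lower on withdrawal against control (9 and 0 unadjusted), with a median of 0.48, where 21.7% of all genes were called higher and 23.6% lower. With spike scaling the calls were 6 and 0 (poly-A) and 6 and 3 (hybridization). Trak1, which links kinesin to mitochondria, was at 1.31, the light chain gene Klc4 at 1.26, the adaptor gene Spag9 at 1.08 and Kidins220 at 0.83. Under TGF-β 3 were higher and 1 lower, a called share of 30.8%, near the 32.4% of all genes, and with either spike scaling 0 and 1. Klc1, the light chain that shared the direction of Kif5c, was at 0.45 under TGF-β and -0.40 on withdrawal against TGF-β (adjusted p = 0.00174 and 0.00182).

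Of 20 genes of cytoplasmic dynein and dynactin, the motor of the opposite direction, 9 were higher and 4 lower on withdrawal against control (3 and 3, and 3 and 10, with the spike scalings), and 9 were higher and 0 lower under TGF-β (10 and 1 unadjusted; 2 and 1, and 4 and 0, with the spike scalings). Against TGF-β, withdrawal gave 6 higher and 9 lower with a median of -0.17, a called share of 75% beside 43.9% of all genes. The called share of this list was 65% on withdrawal against control and 45% under TGF-β, beside 45.3% and 32.4% of all genes. The heavy chain gene Dync1h1 was at 0.89 on withdrawal, and the adaptor gene Bicd2 at 0.98 under TGF-β. Of 16 intraflagellar transport genes, whose proteins the Kif3 motor carries, 11 were higher and 2 lower on withdrawal against TGF-β, and 1 was higher and 7 lower under TGF-β, where 43.9% and 32.4% of all genes were called. The cilium dynein gene Dync2li1 was at 1.09 and -0.46 in these comparisons, Wdr19 at 1.08 and -0.15, and Ift81 at 0.78 and -0.70. Of these TGF-β differences that of Wdr19 did not pass (adjusted p = 0.223). On withdrawal against control the intraflagellar median was 0.26, and it turned to -0.11 with hybridization spikes.

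Microtubules, the track of these motors, are built of tubulin. Of 13 tubulin genes, 12 were lower and 0 higher on withdrawal against TGF-β (12 and 0 unadjusted), with a median of -0.82, where 22.1% of all genes were called lower. Under TGF-β 6 were higher and 2 lower, where 15.0% of all genes were higher and 17.5% lower, with a median of 0.014 that turned to -0.28 and -0.14 with the spike scalings. Tubb3, the β-tubulin best known from neurons, rose by 3.43 under TGF-β (adjusted p = 9.92e-06) and fell by 3.46 on withdrawal against TGF-β (adjusted p = 8.7e-06), in the direction of Kif5c. Tubg1, the γ-tubulin that nucleates spindle microtubules, was at -1.54 on withdrawal and -0.29 under TGF-β. Tubulin genes are close in sequence, so single members are uncertain.

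**Figure D5:**
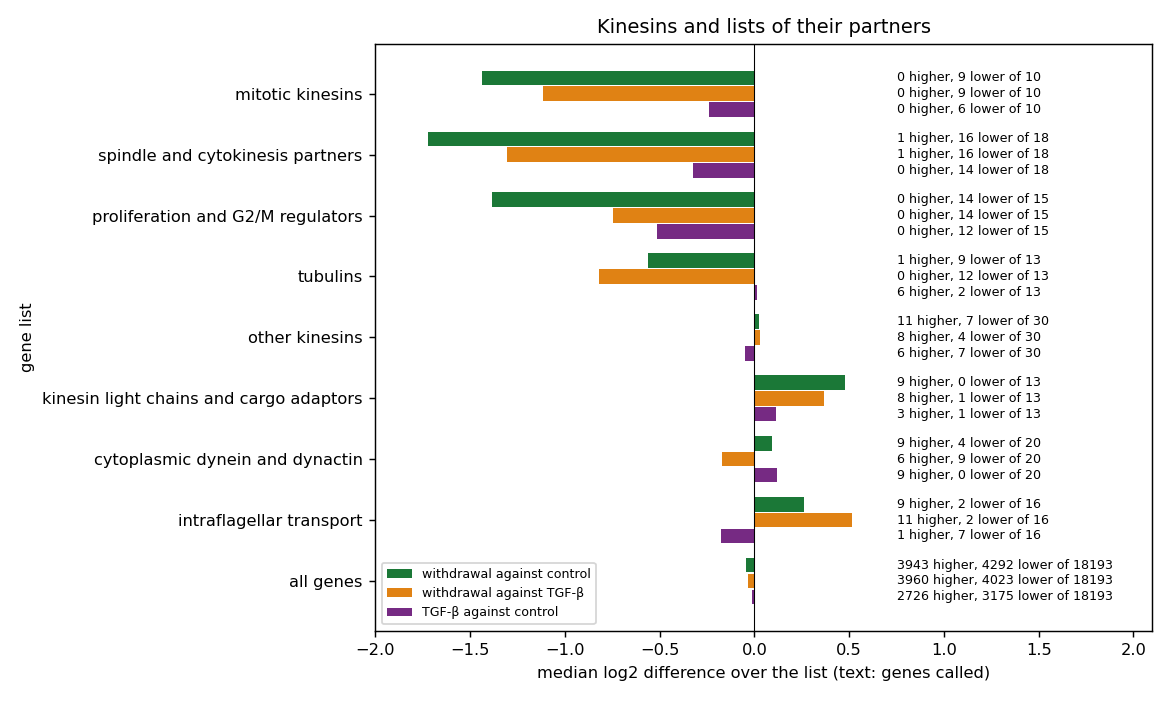
Median log2 difference (horizontal axis) of the mitotic kinesins, the other kinesins, 6 lists of their partners and all genes, in withdrawal against control, withdrawal against TGF-β and TGF-β against control, with the number of genes called in each direction written beside each bar. Mitotic kinesins, spindle partners and G2/M regulators lie at -1.39 to -1.72 on withdrawal against control, the other kinesins at 0.022.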

How the data were processed

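Per the submitters' processing notes the authors used RMA, which corrects background, quantile normalises arrays and summarises probes into the deposited log2 values, so a shift shared by all genes is removed. Its software version is not stated. Per the labels' protocols, total RNA was labelled with a 3' IVT kit. Of 45101 probe sets, 64 controls were left out, and the 34945 with 1 symbol in the array annotation gave 18193 genes. A linear model was fitted for each gene over the 6 arrays with limma 3.58.1 in R 4.3.3 (lmFit and eBayes, 3 residual and 2.86 prior degrees of freedom), two-sided, with Benjamini-Hochberg adjustment over all genes and a threshold of 0.05. The fit was tested on simulated data. Probe sets other than the chosen one come from a separate fit over all 34945. Per-array values are printed for the mitotic list, Kif14, Kif18b and other kinesins called with a difference of at least 0.5. Up to 4 called partners per list were to be named; Klc1, Prc1, Numa1, Mki67, Kif26a and the NF-Y genes were named after their values were seen. The members and lists were chosen with earlier results of these data known, so no list has a test of its own. Replicate numbers did not pair the arrays: deviations of same-numbered arrays correlated at -0.016 to 0.0067. The 15 alternatives covered scaling, filtering, probe set choice, model and leaving out each array.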

Additional observations from a re-analysis of the deposited data

How the results depend on the processing

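Mitotic kinesin calls numbered 7 to 10 on withdrawal against control and 7 to 9 against TGF-β under the 15 other settings, with 7 where probe sets ending in x, s or a were left out, which gives no value for Kif20a and Kifc1. The filter on dim genes gave no value for 10 kinesins, Kif15 among them. Leaving out 1 array gave 3 to 5 mitotic calls under TGF-β (6 with all arrays) and 7 to 11 among the other kinesins (13 with all). With the replicate number as a block the mitotic calls were 6 under TGF-β and 9 in both withdrawal comparisons; among other kinesins they were 11, 12 and 16, and over all genes 5519, 7688 and 7908 (TGF-β, withdrawal against TGF-β, withdrawal against control), and the block cost Kif16b and Kifc3 their withdrawal calls against control and Kif21b and Kif5b their TGF-β calls. Scaling to poly-A spikes gave 10 calls among other kinesins on withdrawal against control (18 in the fit given above) and 5006 genes on withdrawal against TGF-β (7983 above); hybridization spikes gave 14289 genes on withdrawal against control (8235 above). The split of all genes under TGF-β was 818 higher and 5334 lower, and 1319 and 4408, with the spike scalings, against 2726 and 3175; on withdrawal against TGF-β it was 3506 and 1500, and 2146 and 7772; against control 1967 and 3730, and 1655 and 12634. Scaling to spikes also turned signs of differences near 0 that pass in neither fit; the signs given next belong to values called in one of the 2 fits. They turned under TGF-β with poly-A spikes for Kif21b (-0.042), Kif5b (-0.12) and Kif7 (-0.016), with the mean of probe sets for Kif1b (0.23) and Kif5a (0.20), and without x, s and a probe sets for Kif5a (0.56), the last 3 of which passed. With hybridization spikes they turned on withdrawal against control for Kif14 (-0.37), Kif15 (-0.28), Kif16b (-0.23), Kif17 (-0.35), Kif1c (-0.18), Kif2b (-0.29), Kif3b (-0.027), Kif3c (-0.15), Kif5b (-0.094), Kif7 (-0.049) and Kifc2 (-0.31), where the scaling itself moved the median of all genes to -0.42. The cause of the other losses was not tested. Of 1758 single-gene values under other settings, 1596 stayed on their side of the threshold, 106 lost and 39 gained a call, and 17 changed sign with a call in one of the fits. Without detection calls, dim members such as Kif14, Kif2b, Kif26a and Kif28 are not separated from background.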
